A study of Mus musculus with 15 samples.

Results

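The epidermal growth factor (EGF) family genes examined here were the ligands Areg, Ereg, Hbegf, Tgfa, Btc, Egf and Nrg1, the receptors Egfr and Erbb3, and Errfi1, an inhibitor of the receptors. They were read as named genes from arrays of mouse lung, taking for each gene the row annotated with that symbol alone that had the highest mean over all arrays. Of the 10 genes, 9 had such a row, each exactly 1, among 28361 rows of the table and 19934 genes with a symbol of their own. Areg had no row by this rule, and a row given that name elsewhere is described without a test.

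The RNA came from 1 lobe, the inferior lobe of the right lung, of male mice of the inbred strain C57BL/6N, hybridised mouse by mouse to whole-transcript arrays (Affymetrix), with 5 mice in each of 3 groups. All mice were anaesthetised with ketamine and acepromazine and carried a tracheal tube and an arterial line, the controls included, and no age was stated. Controls breathed synthetic air on their own during the 6 h of the experiment. The air-ventilated mice were ventilated mechanically over that time with breaths of 12 ml/kg and a positive end-expiratory pressure of 2 cmH2O, and the H2S-ventilated mice in the same way with synthetic air that contained 80 ppm hydrogen sulfide. A group breathing H2S spontaneously is not analysed here. Below, with air and with H2S name the ventilated groups, compared with control unless another group is named. In the comparison of H2S-ventilated mice with control, ventilation and H2S changed together. Values are intensities on a linear scale, normalized between arrays by the authors, and a difference is a difference of group means of log2 intensity. A gene counted as changed at a limma p under 0.05 after Benjamini-Hochberg adjustment over all rows. In whole lung, fewer cells of a type and less RNA per cell cannot be told apart.

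Ligands of the EGF family are made as membrane-bound precursors. Metalloproteases of the ADAM family cut them free, and the released ligand brings receptors together in pairs, which turns on their kinase and the Ras, ERK (extracellular signal-regulated kinase) and phosphoinositide 3-kinase pathways. Egfr binds Areg, Ereg, Hbegf, Tgfa, Btc and Egf, whereas Nrg1 binds Erbb3, which signals through a partner receptor because its own kinase is weak. In the lung the family is known for the growth and repair of the epithelium and for release of ligands when cells are stretched.

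Promoter sequences of 6 of the 10 genes, 8 windows in all, were read from a RefSeq table (build GRCm38.p6). None is given here for Ereg, Hbegf, Nrg1 and Erbb3. Windows of Areg and Errfi1 are shown because they hold a known element. Those of Btc, Tgfa and Egfr are shown because these genes were higher in H2S-ventilated mice than in control. All windows shown were chosen after the values were seen. Each is the sense strand, 5′ to 3′, of the 100 bases up to the annotated start. Capitals mark TGACGTCA, the cAMP response element, a palindrome that reads the same on both strands and is bound by factors of the CREB and ATF families.
Areg, chr5:91139499-91139598, plus strand: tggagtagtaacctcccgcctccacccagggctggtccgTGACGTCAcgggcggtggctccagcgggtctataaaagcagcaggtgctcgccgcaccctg
Errfi1, second window, chr4:150854970-150855069, plus strand: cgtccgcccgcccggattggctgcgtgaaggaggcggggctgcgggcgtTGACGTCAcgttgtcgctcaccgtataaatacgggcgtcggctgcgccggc
Btc, chr5:91402995-91403094, minus strand: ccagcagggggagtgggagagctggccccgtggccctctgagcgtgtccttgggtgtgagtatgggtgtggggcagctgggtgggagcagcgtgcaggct
Tgfa, chr6:86195122-86195221, plus strand: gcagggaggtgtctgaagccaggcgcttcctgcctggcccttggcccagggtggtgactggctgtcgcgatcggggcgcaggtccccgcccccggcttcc
Egfr, chr11:16752103-16752202, plus strand: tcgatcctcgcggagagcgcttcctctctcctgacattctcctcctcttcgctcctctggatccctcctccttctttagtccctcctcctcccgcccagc

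The cAMP response element letters stood 61 to 54 bases before the start of Areg and 51 to 44 bases before the second start of Errfi1. Over the 250 bases before each start, 508 of 32851 windows in the whole table, 1.55%, held these letters. The other letters searched on both strands were TGACGTAA or TTACGTCA, in 0.447% of windows, the E-box CACGTG in 6.02%, the AP-1 letters TGACTCA or TGAGTCA in 4.46% and the heat shock core GAANNTTC or TTCNNGAA in 12.8%. None of these was in the 8 windows of the family. Areg, Ereg, Btc and a further ligand, Epgn, are neighbours on chromosome 5 in the order Epgn, Ereg, Areg, Btc.

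Arrays were alike in overall brightness, with median intensities of 179 to 187 in the 15 mice, and arrays of the same group correlated at 0.984 to 0.994 across rows, which are not independent replicates. The tissue label was checked with markers. For the counts below, 1.56% of all rows were called higher and 1.89% lower with air, and 3.92% and 3.93% with H2S. The 9 alveolar type II markers, among them Sftpc with a median intensity of 14363 in control mice, summed to 61400 to 64778 in controls, 62701 to 65796 with air and 62921 to 65859 with H2S. Neutrophil markers summed to 5225 to 10505 in controls, 9895 to 15173 with air and 9445 to 17801 with H2S, and 2 of 8 rose with air and 3 of 8 with H2S. All 6 B cell markers with a row, of 7 listed, were lower in both ventilated groups. Their sum was 3111 to 5243 in controls, 1228 to 2916 with air and 1105 to 2258 with H2S. Of 7 endothelial markers, 2 fell with air and 3 with H2S, and the sum ran from 26191 to 29191 in controls, 22216 to 24924 with air and 22698 to 24601 with H2S. The part of these shifts in the results below was not tested.

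Markers of other cell types that passed are given next. They are to be read beside the same shares of all rows, 1.56% higher and 1.89% lower with air, and 3.92% and 3.93% with H2S. Macrophage markers rose in 1 of 7 with air and 2 of 7 with H2S. With H2S, 1 alveolar type II marker of 9 was higher and 1 lower, while 2 of 7 alveolar type I, 1 of 7 airway epithelial, 2 of 8 fibroblast and smooth muscle, 1 of 5 mesothelial and 2 of 6 mast cell and basophil markers were lower. With air, 1 of 5 mesothelial and 1 of 5 hepatocyte markers were lower. No T cell marker passed in either comparison, of 6 with a row.

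Mechanical ventilation with H2S was accompanied by higher expression of 4 of the 9 genes, the ligands Tgfa, Btc and Nrg1 and the receptor Egfr, and of no lower gene. Nrg1 had the largest difference, 0.60 in log2 or 1.51-fold. Of all rows, 3.92% were called higher and 3.93% lower in the same comparison. All 9 differences from control were positive, with a median of 0.32 in log2, beside 0.0023 over all rows. At an unadjusted p under 0.05, 5 genes and 20.7% of all rows passed, and CyberT, a regularised test, called 4 genes and 9.22% of rows, with Errfi1 in place of Tgfa. When a minimum fold of 1.7 was required, with limma p up to 0.005 and adjusted p up to 0.1, 0 of the 9 genes and 1.45% of all rows were called. The study set these cut-offs on CyberT, not on limma. The plot of differences gives each gene with its interval.

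With air alone the only gene that passed was a receptor, Erbb3, which was 0.38 higher in log2. Here 1.56% of all rows were called higher and 1.89% lower. The median difference of the 9 genes was 0.03 and 6 were positive, beside a median of 0.014 over all rows. At an unadjusted p under 0.05, 3 genes and 14% of rows passed, CyberT called 1 gene and 5.7% of rows, and the thresholds with the fold of 1.7 called 0 genes and 0.959% of rows. Both comparisons used the same 5 control mice.

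Between H2S and air ventilation limma called 0 of the 9 genes, and 0.0776% of all rows. At an unadjusted p under 0.05 there were 4 genes, Btc, Nrg1, Erbb3 and Errfi1, against 5.68% of rows, and CyberT called 0 genes and 0.504% of rows. With the fold threshold 0 genes and 0.0599% of rows were called. The median difference was 0.17, with 7 of 9 positive, beside -0.008 over all rows. A difference between the gases was therefore not shown for any of the 9 genes at this number of mice.

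**Figure D1:**
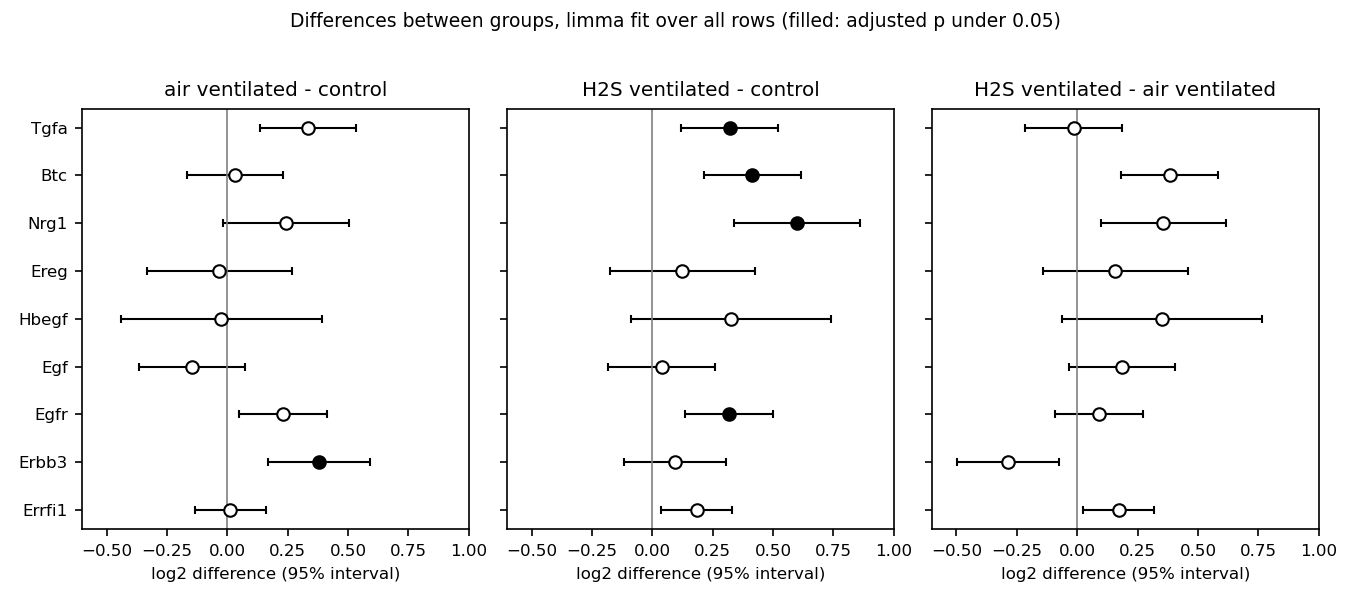
Differences of group means of log2 intensity (horizontal axis) for the 9 EGF family genes, with 95% intervals from limma, in 3 panels for air against control, H2S against control and H2S against air. Filled points have an adjusted p under 0.05, which were Erbb3 with air and Tgfa, Btc, Nrg1 and Egfr with H2S, and none between the gases.

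Btc encodes betacellulin, a ligand of Egfr and Erbb4. Its intensities in control mice were 169, 134, 165, 141 and 145, and with air ventilation 166, 153, 154, 139 and 157. With H2S ventilation they were 209, 177, 178, 239.7 and 204. Every H2S-ventilated mouse was above every control and every air-ventilated mouse, while the air and control mice overlapped. Groups that did not overlap in this direction made up 4.11% of all rows against control and 0.691% against air. Btc rose with H2S by 0.41 in log2 (SE 0.09, 95% interval 0.22 to 0.61, adjusted p = 0.012), a fold of 1.33. With air it differed from control by 0.03 (SE 0.09, adjusted p = 0.963). The difference of H2S from air, 0.38 (SE 0.09), did not pass after adjustment over all rows (adjusted p = 0.245). The call with H2S was kept with any 1 mouse left out (adjusted p of 0.00835 to 0.037).

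The mice carry running numbers in their labels, 1 to 12 in 9 mice and 20 to 28 in 6, whose meaning is not given. Among mice numbered 1 to 12, Btc was 0.53 higher with H2S than in control (adjusted p = 0.0246), and among those numbered 20 to 28 0.24 higher (adjusted p = 0.544). The 3 H2S-ventilated mice with low numbers had the highest intensities of all.

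Nrg1 encodes neuregulin 1, a ligand of Erbb3 and Erbb4. Its intensities were 197, 198, 212, 182 and 225 in control mice and 206, 192, 309.6, 236 and 269.7 with air. With H2S they were 280.4, 291, 379, 283 and 308. The H2S-ventilated mice all lay above the controls, as in 4.11% of all rows. Air-ventilated mice were spread from the control range into the H2S range. With H2S, Nrg1 rose by 0.60 in log2 (SE 0.12, 95% interval 0.34 to 0.86, adjusted p = 0.00628). The difference with air was 0.24 (SE 0.12, adjusted p = 0.414) and that between H2S and air 0.36 (SE 0.12, adjusted p = 0.586), neither of which passed. The H2S call was kept with any 1 mouse left out (adjusted p of 0.00351 to 0.0221). Within the low numbers the difference from control was 0.50 (adjusted p = 0.0912) and within the high numbers 0.75 (adjusted p = 0.353), so that neither set of mice passed on its own.

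Tgfa encodes transforming growth factor alpha, a ligand of Egfr. It was 508, 452, 406, 356 and 374 in control mice. With air ventilation it was 456, 545, 535, 569.8 and 524, and with H2S ventilation 500.1, 521, 522, 556 and 499. The ventilated groups lay side by side, and 1 control mouse, at 508, reached into their range. The difference from control was 0.34 with air (SE 0.09, 95% interval 0.14 to 0.53, adjusted p = 0.0655) and 0.32 with H2S (SE 0.09, 95% interval 0.12 to 0.52, adjusted p = 0.0475). Between H2S and air it was -0.02 (95% interval -0.21 to 0.18, adjusted p = 0.997).

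The differences with H2S and with air were nearly the same size, on either side of the threshold. The H2S call was lost, at an adjusted p of 0.0512 to 0.127, without any 1 of control mice 2 to 5, air-ventilated mice 2 to 5 or H2S-ventilated mice 1 to 5, and with CyberT (adjusted p = 0.053). Without control mouse 1 (adjusted p = 0.0152) or air-ventilated mouse 1 (adjusted p = 0.045) Tgfa passed with air. It also passed with air when the number sets described above entered as a block (adjusted p = 0.0311), and under 7 other settings, which were array weights, a variance trend, both filters on dim rows, median centring, repeated quantile normalization and an offset before the log2 (adjusted p of 0.0211 to 0.0476). Tgfa was higher in both number sets, by 0.42 in log2 with air and 0.45 with H2S in mice numbered 1 to 12, and by 0.20 and 0.12 in those numbered 20 to 28.

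**Figure D2:**
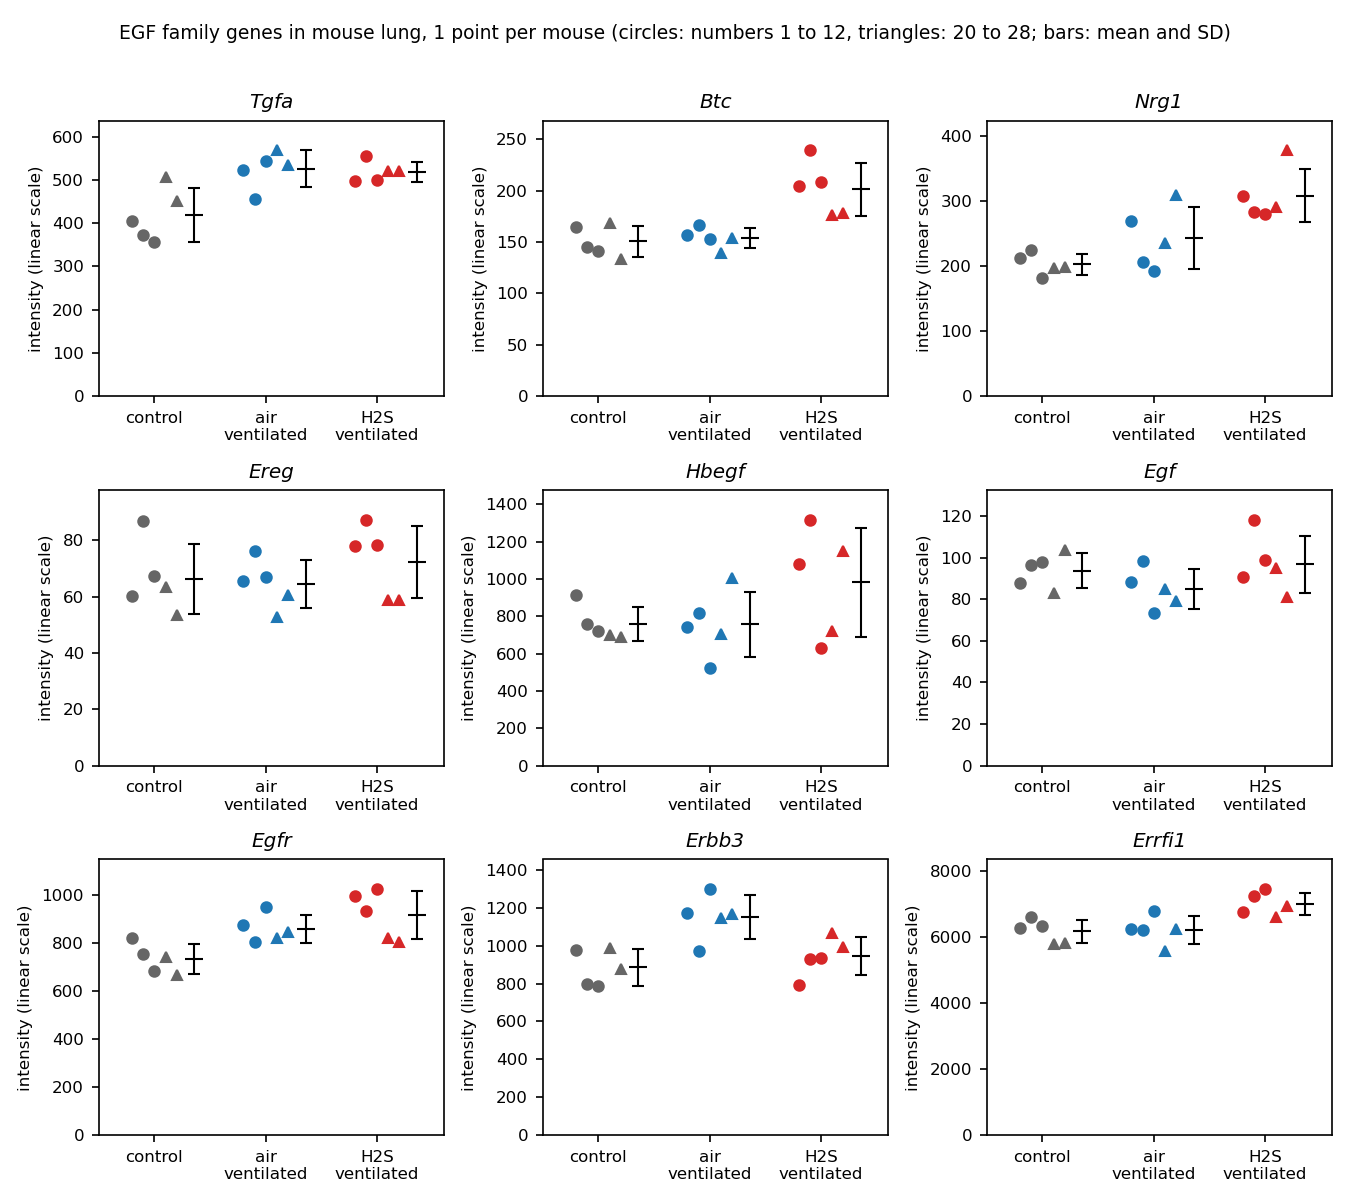
Intensity on a linear scale (vertical axis, from 0) of the 9 EGF family genes, 1 point per mouse in control, air-ventilated and H2S-ventilated mice, with bars for the mean and SD of 5 mice. Circles are mice with label numbers 1 to 12 and triangles 20 to 28. For Btc, Nrg1 and Errfi1 all H2S-ventilated mice lie above all controls, and for Btc also above all air-ventilated mice.

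The remaining ligands with a row, Ereg, Hbegf and Egf, did not pass in any comparison. Ereg and Egf lay below the array medians of 179 to 187 in every mouse. No detection value was used, so whether these rows were above background is not known. Ereg, the gene of epiregulin, was 53.6 to 86.8 in control mice (median 63.4), 52.8 to 76.1 with air (median 65.6) and 58.7 to 87.4 with H2S (median 78). Its difference from control was -0.03 with air (95% interval -0.33 to 0.27) and 0.12 with H2S (95% interval -0.18 to 0.42). Egf was between 83 and 103.7 in control mice, 73.3 to 98.2 with air and 80.9 to 118 with H2S, and differed from control by -0.15 (95% interval -0.37 to 0.07) and 0.04 (95% interval -0.18 to 0.26).

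Hbegf, the gene of heparin-binding EGF-like growth factor, varied most among H2S-ventilated mice. Control values were 701, 689.7, 914, 721 and 760.1, and air values 817, 521, 1003, 704 and 740. With H2S they were 631, 723, 1149.9, 1318 and 1081. In all, 3 H2S-ventilated mice were above every control mouse, and 1 was below every control mouse. The difference with H2S was 0.33 in log2 (SE 0.20, 95% interval -0.09 to 0.74, adjusted p = 0.397) and with air -0.02 (SE 0.20, 95% interval -0.44 to 0.39, adjusted p = 0.988).

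Areg, the gene of amphiregulin, another ligand of Egfr, was not listed in the platform annotation used here. The study's own list of transcripts called with H2S ventilation and not with air ventilation gives this name to the row 10523182. That row was therefore found through the same contrasts, so its values are given as a description without a test and it is not counted among the 9 genes. Its intensities were 279, 251, 207, 249.7 and 166 in control mice, 426, 328, 369, 292 and 480.2 with air, and 1294, 777, 1622, 1291 and 1159 with H2S. Group means were lowest in control and highest with H2S. Every air-ventilated mouse was above every control mouse, the nearest values being 292 and 279. The share of all rows with that separation is not given here. All H2S-ventilated mice were above all others, a separation found in 4.11% of all rows against control and 0.691% against air. The difference in log2 from control was 0.72 with air and 2.40 with H2S, a fold of 1.64 and 5.27, and H2S lay 1.68 above air, a fold of 3.21.

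Mice with label numbers 1 to 12 and 20 to 28 both showed this order for the Areg row. Differences from control were 0.99 and 0.31 with air and 2.61 and 2.09 with H2S, and differences of H2S from air 1.62 and 1.77, in the low and the high numbers. The plot of the Areg row shows each mouse.

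**Figure D3:**
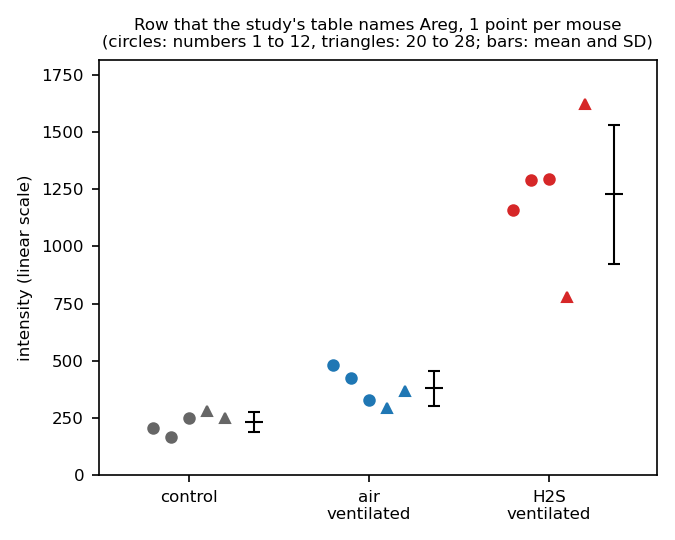
Intensity on a linear scale (vertical axis, from 0) of the row that the study's list names Areg, 1 point per mouse, with bars for the mean and SD of 5 mice per group. Circles are mice with label numbers 1 to 12 and triangles 20 to 28; the lowest H2S-ventilated mouse, at 777, is above the highest air-ventilated mouse, at 480.2.

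Egfr encodes the receptor shared by most of these ligands. Its intensities were 741, 668, 820.2, 684 and 754 in control mice, 806, 951, 845, 820.2 and 876 with air and 1025, 823, 805, 935 and 995 with H2S. In both ventilated groups 4 of 5 mice were above every control mouse, and the ventilated groups overlapped each other widely. The difference from control was 0.32 with H2S (SE 0.09, 95% interval 0.14 to 0.50, adjusted p = 0.0314) and 0.23 with air (SE 0.09, 95% interval 0.05 to 0.41, adjusted p = 0.195). H2S differed from air by 0.09 (95% interval -0.09 to 0.27, adjusted p = 0.997). Leaving out control mouse 1, 2 or 4 or H2S-ventilated mouse 1, 4 or 5 ended the H2S call of Egfr (adjusted p of 0.0527 to 0.0859). Within the number sets the difference with H2S was 0.39 (adjusted p = 0.0899) for 1 to 12 and 0.21 (adjusted p = 0.505) for 20 to 28.

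Erbb3, the receptor for neuregulins, had another order, with the air-ventilated mice highest. Control values were 989, 877, 979, 787 and 796, those with air 971, 1299, 1169.65, 1144 and 1173, and those with H2S 935, 1067, 994, 930.4 and 793. Of the air-ventilated mice, 4 of 5 were above every control and every H2S-ventilated mouse, and the H2S and control mice overlapped. Erbb3 rose with air by 0.38 (SE 0.10, 95% interval 0.17 to 0.59, adjusted p = 0.0467). With H2S the difference from control was 0.09 (SE 0.10, 95% interval -0.12 to 0.30, adjusted p = 0.697). H2S against air gave a log2 difference of -0.29 (95% interval -0.50 to -0.08), which did not pass (adjusted p = 0.586). The air call was lost without control mouse 2, 4 or 5, air-ventilated mouse 2, 3, 4 or 5, or H2S-ventilated mouse 1, 3 or 4 (adjusted p of 0.0543 to 0.132). It was 0.42 (adjusted p = 0.21) within the numbers 1 to 12 and 0.31 (adjusted p = 0.783) within 20 to 28.

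Errfi1 encodes Mig6, a cytoplasmic protein that binds the kinase domain of Egfr and shuts it off. It was 5788, 5838, 6290.3, 6345 and 6604 in control mice, 6224, 6805, 6252, 5593 and 6257 with air and 7461, 6619, 6951, 7252 and 6762 with H2S. All H2S-ventilated mice were above all controls, as in 4.11% of all rows, though the nearest pair, at 6619 and 6604, almost touched. The difference with H2S was 0.18 (SE 0.07, 95% interval 0.04 to 0.33) and did not pass (adjusted p = 0.127), although it did with CyberT (adjusted p = 0.0439) and with a variance trend (adjusted p = 0.0496). With air it was 0.01 (SE 0.07, adjusted p = 0.985), and between H2S and air 0.17 (SE 0.07, adjusted p = 0.725).

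Genes whose log2 values followed each changed gene most closely over the 15 mice were found among 19925 other genes. For Btc they were Jund (Pearson r = 0.94), Dusp4 (0.93) and Ramp3 (0.93), and for Nrg1 Naa25 (0.93), Tmem251 (0.91) and Sfn (0.90). Tgfa was followed by Ipo13 (0.93), Slc7a5 (0.93) and Fam78b (0.93), Egfr by Oxsr1 (0.94), Ndel1 (0.91) and Retreg1 (0.90), and Erbb3 by Dock9 (0.92), Arrdc2 (0.91) and Rprd1b (0.91). The 15 points of each correlation share arrays, normalization and the differences between the 3 groups, and no test was made.

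Beyond the 10 genes, 68 genes of the EGF receptor pathway in 7 lists were followed, 63 of which had a row. With H2S, 20 were higher and 2 lower, by the same limma fit, beside 3.92% and 3.93% of all rows, and the median difference was 0.14 in log2, beside 0.0023 over all rows. With air, 2 were higher and 2 lower, beside 1.56% and 1.89% of all rows, and the median was 0.09, beside 0.014. Between the gases limma called 0, and 0.0776% of all rows. At an unadjusted p under 0.05 there were 21 genes with air, 33 with H2S and 14 between the gases, where 14%, 20.7% and 5.68% of all rows passed. CyberT called 10, 22 and 7, and 5.7%, 9.22% and 0.504% of all rows. Leaving out 1 mouse at a time moved the H2S count between 13 and 23, the lowest without H2S-ventilated mouse 5, and the air count between 2 and 6. The air count was 2 without control mouse 3, 4 or 5 or air-ventilated mouse 1 or 5.

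Ligands and receptors outside the main group did not pass in either comparison with control. These were the ligands Epgn, Nrg2, Nrg3 and Nrg4 and the receptors Erbb2 and Erbb4. Epgn, Nrg3, Nrg4 and Erbb4 lay below the array medians in every mouse, and whether they were above background is not known. Nrg4 had a difference of 0.33 with air (adjusted p = 0.192), and its difference with H2S was 0.24 (adjusted p = 0.297). Erbb2, the usual partner of Erbb3, was at 463 in control mice, 487 with air and 470.1 with H2S (median intensities).

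Among 10 sheddases and their regulators, 1 was higher and 1 lower with air, beside 1.56% and 1.89% of all rows. With H2S, 3 were higher and 1 lower, beside 3.92% and 3.93% of all rows. Adam10, Adam12, Adam15, Adam19, Rhbdf1 and Rhbdf2 did not pass in either comparison with control. Adam17, the protease that releases Tgfa, Areg and Hbegf, was lower in both ventilated groups. It was between 1099.8 and 1459 in control mice, 932 to 1078 with air and 874 to 1086 with H2S. The log2 difference was -0.36 with air (SE 0.09, adjusted p = 0.0274). It was -0.38 with H2S (SE 0.09, adjusted p = 0.0118), and this call was kept with any 1 mouse left out, the air call in 9 of 15 such fits. Timp3, an inhibitor of Adam17, was 0.44 higher with air (SE 0.08, adjusted p = 0.00522). It was 0.55 higher with H2S (SE 0.08, adjusted p = 0.000548), and both calls were kept in all 15 fits. Adam8 (0.46, adjusted p = 0.026) and Adam9 (0.21, adjusted p = 0.0369) were higher with H2S. Those calls held in 9 and 5 of the 15 fits.

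Receptor adaptors and kinases gave 5 higher of 16 with H2S and 1 with air, where 3.92% and 1.56% of all rows were higher. Gab2, a docking protein that recruits phosphoinositide 3-kinase, had the largest difference in both. It rose with air by 0.66 in log2 (SE 0.08, adjusted p = 0.00104). With H2S the rise was 0.73 (SE 0.08, adjusted p = 0.00011). It was between 1109.9 and 1423 in control mice, 1903.5 to 2126 with air and 2003 to 2182 with H2S. The others, with H2S, were Shc1 (0.34, adjusted p = 0.0341), Sos2 (0.27, adjusted p = 0.0175), Ptpn11 (0.30, adjusted p = 0.0171) and Stat3 (0.31, adjusted p = 0.0493, named after its value was seen). Of 10 downregulators of the receptor, Cblb, a ubiquitin ligase, was 0.32 higher (adjusted p = 0.022) and Socs4 0.35 higher (adjusted p = 0.0491) with H2S, and none passed with air. When mice were left out in turn, Shc1, Cblb and Socs4 kept their calls with H2S in 9, 12 and 4 of 15 fits. Sos2 kept its call in 14, and Gab2 and Ptpn11 in all 15. For Stat3, close to the threshold, these fits are not given.

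ERK feedback inhibitors, genes that active ERK induces and whose products damp the pathway, gave 4 higher of 9 with H2S and 0 with air, beside 3.92% and 1.56% of all rows. Spry4, a Sprouty protein, was between 513 and 678 in control mice, 694 to 1354 with air and 990.3 to 1559.95 with H2S. The phosphatase Dusp6, which inactivates ERK, was 1206 to 1326, 1481 to 3238 and 1755 to 3755. Both rose with H2S by 1.06 in log2, Spry4 with an SE of 0.16 (adjusted p = 0.0012) and Dusp6 with an SE of 0.20 (adjusted p = 0.00424). All H2S-ventilated mice were above all controls for both genes, as in 4.11% of all rows. With air the differences were 0.47 (adjusted p = 0.162) for Spry4 and 0.55 (adjusted p = 0.195) for Dusp6, which did not pass. Air-ventilated mouse 1 was far above the other air-ventilated mice in both, and without it the differences were 0.29 and 0.34.

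Dusp4, a further phosphatase of the family, was between 246 and 283 in control mice, 276 to 326 with air and 350.03 to 612 with H2S. Its H2S-ventilated mice were all above both other groups, as in 4.11% of all rows against control and 0.691% against air. Its rise with H2S was 0.75 (SE 0.12, adjusted p = 0.00136), and its difference from air, 0.59 (SE 0.12, adjusted p = 0.101), did not pass. Dusp5 was 0.49 higher with H2S (SE 0.13, adjusted p = 0.0244), a call kept in 10 of 15 fits with a mouse left out, while Spry4, Dusp4 and Dusp6 kept theirs in all. Between the gases, Dusp4, Spry4 and Myc each passed in 1 of those 15 fits, Dusp4 without H2S-ventilated mouse 2 (adjusted p = 0.0219), Spry4 without air-ventilated mouse 1 (adjusted p = 0.0188) and Myc without H2S-ventilated mouse 1 (adjusted p = 0.0151).

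ERK-responsive genes gave 6 higher and 1 lower of 12 with H2S, and 1 lower with air. Of all rows, 3.92% were higher and 3.93% lower with H2S, and 1.89% lower with air. The median differences of the list were 0.54 with H2S and 0.11 with air, beside 0.0023 and 0.014 over all rows. Phlda1, a pleckstrin homology domain protein, was between 471 and 649 in control mice, 623 to 1029 with air and 885 to 1509 with H2S, and rose by 1.07 (SE 0.16, adjusted p = 0.000986) with H2S. Plaur, the urokinase receptor, rose by 0.78 (SE 0.12, adjusted p = 0.00119). The transcription factor gene Myc rose by 1.34 with H2S (SE 0.17, adjusted p = 0.000262), a call kept in all 15 fits with a mouse left out. Also higher were Fosl1 (1.42, adjusted p = 0.00433), Ier3 (0.84, adjusted p = 0.0242) and Emp1 (0.38, adjusted p = 0.0244), which were named after their values were seen. Elk3 was lower in both ventilated groups, at a log2 difference of -0.51 with air (adjusted p = 0.036). The air call was kept in 7 of 15 fits with a mouse left out, and was lost without any 1 of control mice 1 to 5 or air-ventilated mice 1, 2 and 5 (adjusted p up to 0.0986). Its difference with H2S was -0.68 (adjusted p = 0.00387), a call kept in all 15. All these values come from the mice that also gave the study's own lists, in which Dusp6, Phlda1 and Myc stand. The direction of the ERK genes, named there or not, is therefore not independent evidence.

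**Figure D4:**
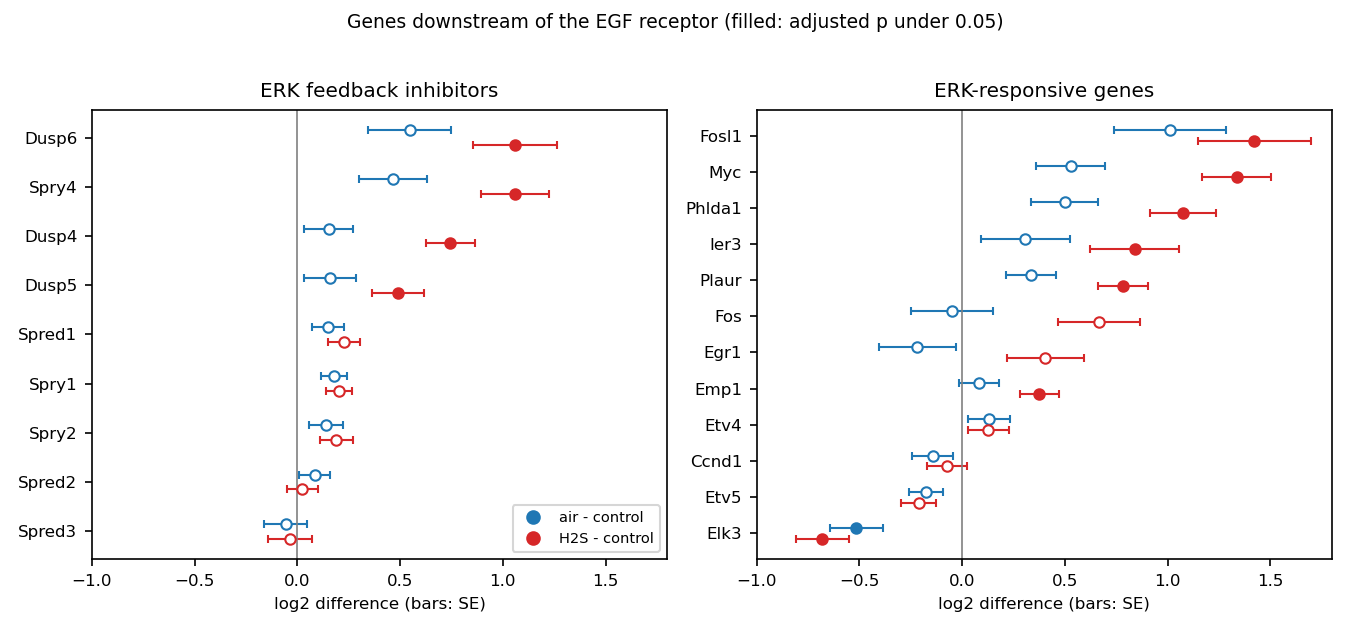
Differences from control in log2 (horizontal axis) for 9 ERK feedback inhibitors and 12 ERK-responsive genes, in air-ventilated (blue) and H2S-ventilated (red) mice, with bars for the SE and filled points at an adjusted p under 0.05. The red points of Dusp6, Spry4, Dusp4, Dusp5, Fosl1, Myc, Phlda1, Ier3, Plaur and Emp1 are filled on the side above 0, and Elk3 is filled below 0 in both colours.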

How the data were processed

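The table deposited by the authors holds linear intensities, 1 array per mouse. The authors read the arrays with Command Console 3.0 and processed them in Genedata Expressionist Refiner 6.1, with background subtraction by GC content from anti-genomic probes, quantile normalization and RMA summarization of the main and unmapped transcripts in annotation NA32. The design had taken these values for log2, so they were transformed to log2 here. No detection value was used and the number of arrays limits the precision.

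All 15 arrays entered 1 fit with limma 3.58.1 (R 4.3.3; linear model, contrasts and empirical Bayes moderation) without covariates, and p-values were adjusted over 28361 rows. They set a difference of group means against the spread between mice within groups. With 1 array per mouse, that spread also holds differences between arrays. CyberT used a window of 101 rows and a confidence of 15. Symbols came from the platform table, in which 21780 rows have 1 symbol, 1617 several and 4964 none. No column was left unused (0). Promoters were read with Python 3.11.15 and plots drawn with matplotlib 3.10.9. The fit was tested on simulated data.

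The genes, the 7 pathway lists and the 12 marker lists were chosen with earlier results of these data known. List members were named by rule, up to 4 per list with the smallest adjusted p against control. Pathway genes without a row are not reported here. Alternatives were other tests, filters, normalizations and fits without each mouse, and for the pathway lists the fits of 2 groups, the filters, the offset, 1 row per gene and group medians were added after the values were seen.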

Additional observations from a re-analysis of the deposited data

How the results depend on the processing

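The 0 members called between H2S and air stayed 0 in all 31 alternatives. Btc, Egf and Ereg were too dim for the filter at the median and entered only 30 of them. For the members with air, where 1 was called, array weights gave 3, and a variance trend, the filter at the 25th percentile, the filter at the median, arrays centred on their median, repeated quantile normalization, the log2 of intensity plus 16 and the number set as a block gave 2 each. With only the 2 groups compared, the rank of the label number as a replicate block, mice 1 to 12 alone or mice 20 to 28 alone, 0 were called, and leaving out 1 mouse gave 0 to 2. For the members with H2S, where 4 were called, the 2 groups alone gave 2, mice 1 to 12 gave 1, mice 20 to 28 gave 0, and leaving out 1 mouse gave 2 to 4. For the pathway lists with air, where 4 were called, CyberT gave 10, array weights 7, the filter at the median 7, mice 20 to 28 gave 0 and leaving out 1 mouse 2 to 6. With H2S, where 22 were called, mice 1 to 12 gave 11, mice 20 to 28 gave 0 and leaving out 1 mouse 13 to 23. Between the gases, where 0 were called, CyberT gave 7, array weights 2, the filter at the median 1, the replicate block 1, the number set as a block 2 and leaving out 1 mouse 0 to 1. The sets by number hold 3 and 2 mice a group, so fewer mice entered those fits; for the other changes the cause was not tested. The numbers in the labels were checked for pairing by correlating deviations from group means. The 15 pairs of mice with the same rank had a mean correlation of 0.21 (lowest -0.18, highest 0.46), against -0.05 for other ranks. Of 15 mice, 6 correlated best with their own rank. These values do not decide whether the numbers pair the mice, and the main fit used neither rank nor number set. Deviations in a group sum to 0, so a higher mean for like numbers tends to go with a lower mean for the others. Mice of different groups in the same number set had a mean correlation of 0.16, and those in different sets -0.17. With the rank as a replicate block, Erbb3 with air had an adjusted p of 0.0523 and no other call of a member was lost. The Areg row with air was 0.31 in mice 20 to 28 alone and 0.72 in all mice.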
